A study of Gallus gallus with 18 samples.

Results

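Netrins and netrin receptors were followed in the early chick trigeminal ganglion, the sensory ganglion of the face. The set was defined by gene symbol: the ligands NTN1, NTN3 and NTN4, and the receptors DCC, NEO1, UNC5B, UNC5C, UNC5D and DSCAM. Of these 9 symbols, 8 were found among the 30108 genes of the count table, each as 1 row, and all 8 passed the filter on low counts, as did 17724 genes in all. DCC, the classical attractive netrin receptor, was not analysed here because no row carried its symbol.

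The study sequenced poly(A)-selected RNA, prepared with TruSeq, from ganglia pooled from wildtype Gallus gallus embryos. The 3 groups, named by Hamburger-Hamilton (HH) stages of chick development, were HH13-14, HH15-16 and HH17-18. Each stage had 3 biological replicates, here called pools, and each pool had 2 technical replicates, run on lanes 7 and 8, whose counts were summed. The number of ganglia in a pool is not given in the labels. The p-values for stages weigh differences between stages against the spread between these pools. Those for lanes compare the 2 lanes within a pool.

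Netrins are secreted proteins related to laminin that guide growing axons and migrating cells. Receptors of the DCC and neogenin type are known mainly for attraction towards netrin, whereas UNC5 receptors, alone or together with DCC, are known for repulsion. During these stages, neural crest cells and cells of ectodermal placodes gather in the trigeminal ganglion and its first neurons extend axons.

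The 18 libraries held 26505315 to 34424153 counts, and the 9 pools held 53458986 to 68083147. Levels are given as CPM, counts relative to library size, scaled by the trimmed mean of M-values. CPM is not corrected for gene length, so levels are compared only between samples of the same gene. One pool stood apart from its stage: on the first principal component of the 500 most variable genes, replicate 1 of HH15-16 scored -23.2, below every HH13-14 pool (-19.8 to -14.3), whereas the other HH15-16 pools scored -3.90 and 9.77 and the HH17-18 pools 15.5 to 27.9. In a bulk sample, fewer cells of a type and less RNA per cell cannot be told apart.

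Among the 8 genes, NTN4 alone passed the threshold, an adjusted p under 0.05 in edgeR's quasi-likelihood test, and it was 3.88-fold higher at HH17-18 than at HH13-14. Of all genes tested, 4.51% passed in this comparison. No member passed between HH13-14 and HH15-16, where 0% of all genes did by edgeR, 1796 genes had an unadjusted p under 0.05 and the DESeq2 test called 103. Between HH15-16 and HH17-18 again 0 members passed, against 0.079% of all genes. An effect of stage over all 3 groups was called for 0 members and 1.3% of genes, and a difference between the later and the earlier step for 0 members and 0.00564% of genes. At an unadjusted p under 0.05, 1 of 8 members passed over the whole interval, 1 in the earlier step and 2 in the later step, beside 21.6%, 10.1% and 9.32% of all genes. The median log2 fold change of the 8 genes over the whole interval was -0.01, beside 0.02 over all genes tested. In the earlier step it was -0.16 beside 0.02, and in the later step 0.24 beside -0.00.

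**Figure D1:**
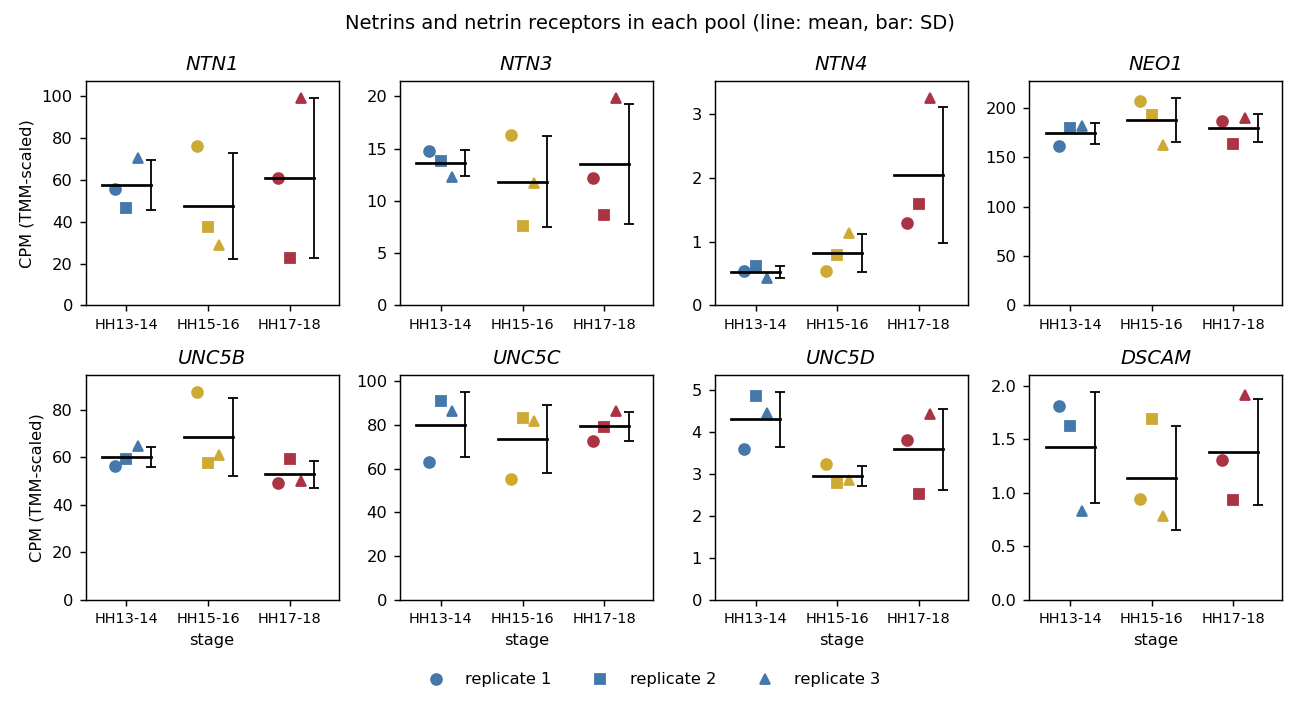
CPM of each of the 8 genes in each of the 9 pools, by stage. Points are pools, with the symbol giving the replicate number, horizontal lines are stage means and bars are SD (n = 3 pools); each panel has its own axis from 0. NTN4 lies between 0.425 and 0.617 CPM at HH13-14 and between 1.29 and 3.26 CPM at HH17-18, and NTN1 spreads from 22.7 to 99.1 CPM within HH17-18.

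**Figure D2:**
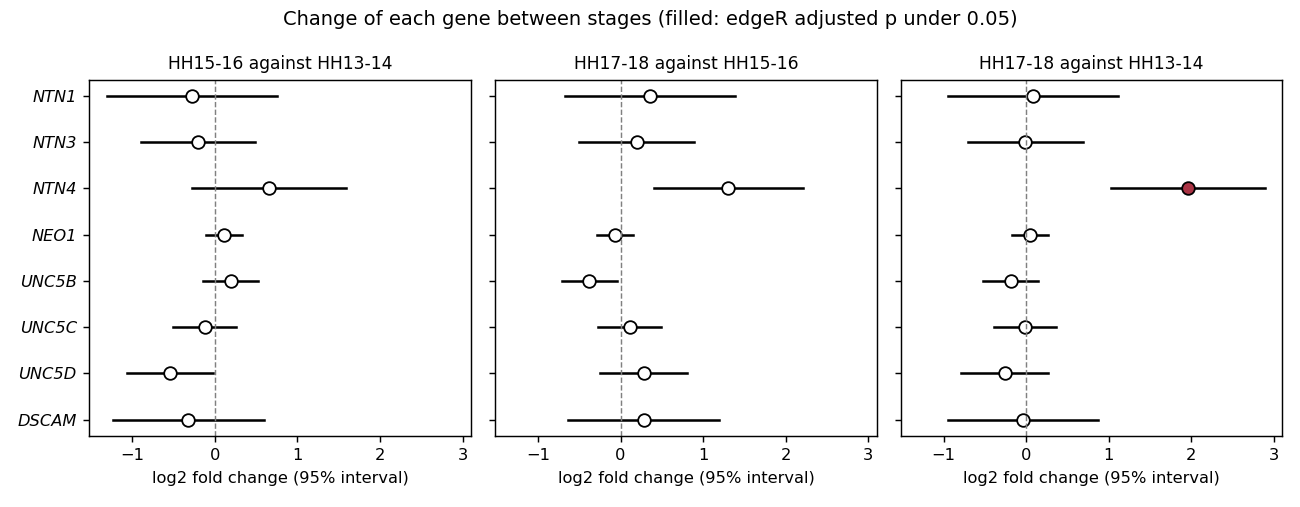
Log2 fold change of each gene for the 3 pairs of stages, with 95% intervals from the edgeR fit; filled points have an adjusted p under 0.05. The filled point is NTN4 over the whole interval, at 1.96 with an interval of 1.02 to 2.89, and the intervals of NTN1 and DSCAM are several times wider than that of NEO1.

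NTN1 (ENSGALG00010029907, chromosome 18, 2671933 to 2721923 on GRCg7b) encodes netrin-1, the chemoattractant best known from the floor plate of the neural tube. Its level was 55.7, 46.7 and 70.4 CPM in replicates 1, 2 and 3 of HH13-14. At HH15-16 it was 76.2, 37.5 and 28.9 CPM, and at HH17-18 it was 60.9, 22.7 and 99.1 CPM. All 3 stages overlapped, and both the lowest and the highest of the 9 values were HH17-18 pools. The highest pool was 1.51 times the lowest at HH13-14, 2.63 times at HH15-16 and 4.36 times at HH17-18. Stage means were 57.6 ± 12.0, 47.5 ± 25.2 and 60.9 ± 38.2 CPM (SD, n = 3). The fold change of HH17-18 over HH13-14 was 1.06 with a 95% interval of 0.518 to 2.16 (log2 0.08, SE 0.47, edgeR adjusted p = 0.94). In log2 terms the earlier step gave -0.28 (edgeR adjusted p = 0.872) and the later step 0.36 (adjusted p = 0.857). Without replicate 3 of HH17-18, the change over the interval turned to -0.47 and that of the later step to -0.19, and without replicate 2 of HH13-14 the former was -0.05. No difference between stages was detectable within this spread.

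The spread of NTN1 was wider between pools than between lanes. In HH17-18 replicate 2 the lanes gave 24.8 and 21.7 CPM, and in replicate 3 they gave 95.5 and 105 CPM. The lanes of replicate 3 differed by an exact binomial test (adjusted p = 0.00551). So did those of HH13-14 replicate 2 and HH15-16 replicate 3 (adjusted p = 0.0433 in both). Known floor plate and midline genes followed NTN1 in some pools and not in others. All 5 genes of that marker list (SHH, FOXA2, FOXA1, SPON1 and NKX2-2) were highest in replicate 1 within HH15-16 and highest in replicate 3 within HH17-18, the pools in which NTN1 was also highest. At HH13-14 the order differed: NTN1 was highest in replicate 3, whereas 4 of the 5 markers were highest in replicate 1 and 1 in replicate 3. The lowest pools also differed. NTN1 was lowest in replicate 2, 3 and 2 of the successive stages, and the markers lowest in those pools numbered 3, 1 and 2 of 5. FOXA2, a transcription factor of the floor plate, was at 7.37, 2.89 and 12.4 CPM in replicates 1 to 3 of HH17-18. NKX2-2, a homeobox gene of the ventral neural tube, was at 5.19, 2.27 and 7.45 CPM in the same pools. Both shared the low replicate 2 of NTN1, whereas SHH (10.3, 13.3 and 21.8 CPM), the secreted signal of the floor plate, FOXA1 (1.61, 1.72 and 3.46 CPM) and SPON1 (141, 149 and 177 CPM) were lowest in replicate 1. The ranges of the list's summed level were 218 to 254 CPM at HH13-14, 174 to 259 at HH15-16 and 166 to 222 at HH17-18, most of it from SPON1. None of the 5 genes was at 0 in any pool. On a list of 7 other neural tube genes (among them SOX2, PAX6 and OLIG2), 6 were highest in replicate 1 of HH15-16, like NTN1. At HH17-18, 6 of the 7 were lowest in replicate 2, like NTN1, but 5 were highest in replicate 1 and 2 in replicate 3. The order at HH13-14 differed from that of NTN1, with 5 of the 7 highest in replicate 1. There, 4 were lowest in replicate 3, the pool highest in NTN1, and 3 were lowest in replicate 2, like NTN1. Their summed level was 218 to 288 CPM at HH13-14 and 157 to 400 at HH15-16, and it was 337, 124 and 264 CPM in replicates 1 to 3 of HH17-18. The part of floor plate or neural tube tissue in the NTN1 values was not tested.

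**Figure D3:**
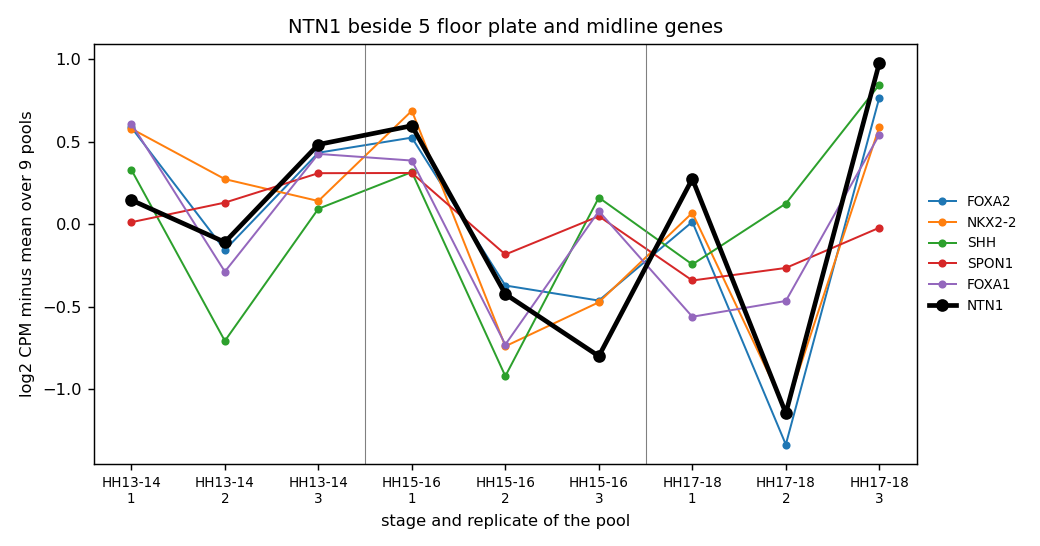
Log2 CPM of NTN1 (thick line) and of 5 floor plate and midline genes, each minus its own mean over the 9 pools. Pools are ordered by stage and replicate number, and lines join the values of a gene without implying an order of replicates. Within HH17-18 all 6 genes are highest in replicate 3, and NTN1, FOXA2 and NKX2-2 are lowest in replicate 2 but SHH, FOXA1 and SPON1 in replicate 1; within HH13-14, NTN1 is highest in replicate 3 and 4 of the 5 markers in replicate 1.

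By the rule of highest Pearson correlation over the 9 pools among 9757 candidate genes, VANGL2 (r = 0.961, Spearman's rho = 0.95) and KCNT2 (r = 0.949, rho = 0.95) were most like NTN1. VANGL2, a core component of planar cell polarity, was at 118, 88.9 and 129 CPM in replicates 1 to 3 of HH17-18, the same order as NTN1 but over a narrower range. These correlations describe the 9 pools, which share libraries and depth, and the genes were picked as the highest of many.

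NTN3 (ENSGALG00010017519, chromosome 14, 14012372 to 14041451) encodes netrin-3, a close relative of netrin-1. It was at 14.8, 13.8 and 12.3 CPM in the HH13-14 pools, 16.3, 7.57 and 11.7 CPM at HH15-16, and 12.2, 8.63 and 19.9 CPM at HH17-18. Stage means were 13.6 ± 1.27, 11.9 ± 4.35 and 13.6 ± 5.75 CPM (SD, n = 3), and the stages overlapped. The spread was wider at the later stages, where the pools highest in NTN1 (replicate 1 of HH15-16 and replicate 3 of HH17-18) were the highest here too. Over the interval the log2 fold change was -0.01 (SE 0.31, 95% interval -0.70 to 0.69, edgeR adjusted p = 0.992), and the steps gave -0.20 and 0.20 (edgeR adjusted p = 0.86 and 0.891). NKAIN2 (r = 0.966, rho = 0.95) and YWHAG (r = 0.961, rho = 0.917) were the genes most like NTN3.

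NTN4 (ENSGALG00010011859, chromosome 1, 45649593 to 45685920) encodes netrin-4, a netrin that binds laminin and is found in basement membranes, where it can disturb laminin networks. Its counts were 35, 33 and 24 in the HH13-14 pools, 32, 55 and 70 at HH15-16, and 84, 87 and 194 at HH17-18. As CPM, these were 0.533, 0.617 and 0.425 CPM, then 0.545, 0.795 and 1.14 CPM, then 1.29, 1.59 and 3.26 CPM. Every HH17-18 pool was above every pool of both earlier stages, and HH15-16 overlapped HH13-14. Stage means were 0.525 ± 0.0961, 0.827 ± 0.298 and 2.04 ± 1.06 CPM (SD, n = 3). Over the interval the gene rose 3.88-fold, with a 95% interval of 2.03 to 7.42 (log2 1.96, SE 0.42, edgeR adjusted p = 0.0326). Neither step alone passed, with 1.30 on the log2 scale in the later step (SE 0.41, edgeR adjusted p = 0.335) and 0.65 in the earlier step (adjusted p = 0.623). The effect of stage over the 3 groups had an edgeR adjusted p of 0.0751.

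Counts of NTN4 were low, and the call was lost when some single pools were left out, which also leaves fewer pools in the fit. In HH17-18 the lanes gave 34 and 50 counts in replicate 1, 42 and 45 in replicate 2, and 103 and 91 in replicate 3. Replicate 3 held the highest value, and without it the log2 fold change was 1.44 (edgeR adjusted p = 0.0983). The adjusted p was also above the threshold without HH17-18 replicate 2 (0.0559), or without HH13-14 replicate 1 (0.125), 2 (0.107) or 3 (0.126), and with lane 7 alone (0.0627). NTN4 was higher at HH17-18 under all 17 alternative settings, with log2 fold changes of 1.44 to 2.20, and passed in 11 of them.

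CNTN2 (r = 0.987, rho = 0.933) and STMN2 (r = 0.982, rho = 0.967) were the genes most like NTN4 over the 9 pools. CNTN2 encodes an axonal adhesion molecule of the immunoglobulin superfamily, and it was at 34.4, 38.3 and 31.0 CPM in the HH13-14 pools, 30.4, 54.0 and 75.5 at HH15-16, and 75.1, 105 and 163 at HH17-18. STMN2, a microtubule regulator of growing neurons, was at 12.6, 13.5 and 11.8 CPM, then 12.0, 14.3 and 24.5, then 31.0, 30.3 and 73.3. All 3 genes were lower in replicate 1 of HH15-16 than in the other HH15-16 pools, and highest of all in replicate 3 of HH17-18. The low replicate 1 was not particular to them. Within HH15-16 that pool was lowest for 9 of 11 sensory neuron, 8 of 8 head mesenchyme and 7 of 8 endothelium markers. The same held for 6 of 6 blood, 6 of 8 neural crest and glia, and 5 of 8 placode ectoderm markers. It was lowest for 3 of 5 motor neuron, 0 of 5 floor plate and 0 of 7 other neural tube markers.

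STMN2 was also on a list of 11 sensory neuron markers, of which 2 rose and 0 fell past the threshold over the interval. On the log2 scale STMN2 rose by 1.83 (edgeR adjusted p = 0.0244) and DCX, a microtubule protein of young neurons, by 0.72 (adjusted p = 0.0211). The list's summed level was 1206 to 1250 CPM at HH13-14, 942 to 1335 at HH15-16 and 1163 to 1756 at HH17-18. Most of it came from TUBB3, and the stages overlapped. Endothelium, whose basement membrane is a known site of netrin-4, was covered by 8 markers. Of these 0 rose and 1 fell past the threshold, the transcription factor SOX18 (log2 -0.81). The log2 fold changes of the 8 ran in both directions, from -0.81 to 0.51, with a median of -0.07. Their summed level was 400 to 447, 289 to 413 and 349 to 435 CPM. Of 6 blood markers, 3 rose and 0 fell past the threshold, where 4.51% of all genes passed. The 3 were the globin gene HBZ (log2 1.13) and the myeloid genes SPI1 (log2 4.35) and CSF1R (log2 3.31). SPI1 started from a very low level, 0.0354 to 0.35 CPM at HH13-14. TAL1 went the other way, from a mean of 18.5 CPM at HH13-14 to 14.0 at HH17-18, and did not pass. The summed level of the blood markers was 554 to 763 CPM at HH13-14, 532 to 1179 at HH15-16 and 1030 to 1580 at HH17-18, most of it from HBZ. None of the markers of these 3 lists was at 0 in any pool. The part of neuronal, endothelial or blood RNA in the rise of NTN4 was not tested.

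**Figure D4:**
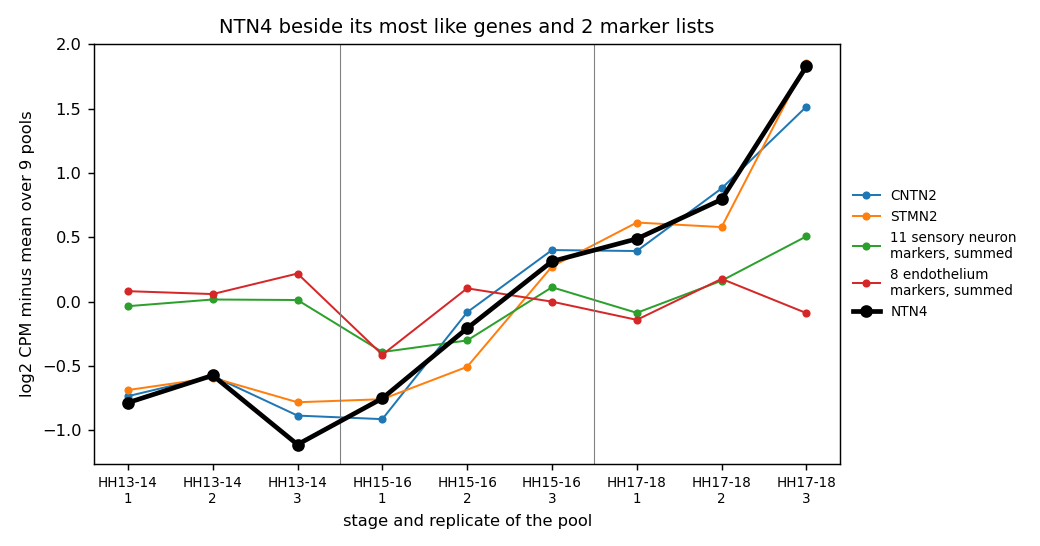
Log2 CPM of NTN4 (thick line), of the 2 genes most like it, and of the summed sensory neuron and endothelium markers, each minus its mean over the 9 pools. Lines join values without implying an order of replicates, and most of the sensory neuron sum comes from TUBB3. NTN4, CNTN2 and STMN2 are highest in the HH17-18 replicate 3 pool. The sensory neuron sum overlaps between stages (1206 to 1250 CPM at HH13-14, 1163 to 1756 at HH17-18). The endothelium sum lies between 289 and 447 CPM over all pools. The blood sum, 554 to 763 CPM at HH13-14 and 1030 to 1580 at HH17-18, is not plotted.

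NEO1 (ENSGALG00010021618, chromosome 10, 1762679 to 2042468) encodes neogenin, the relative of DCC that binds netrins and also repulsive guidance molecules (RGM proteins). Its level was 161, 179 and 182 CPM in the HH13-14 pools, 207, 193 and 163 at HH15-16, and 187, 163 and 189 at HH17-18. The stages overlapped. Means were 174 ± 11.0, 188 ± 22.7 and 180 ± 14.3 CPM (SD, n = 3). The fold change over the interval was 1.03 with a 95% interval of 0.888 to 1.20 (log2 0.05, SE 0.10, edgeR adjusted p = 0.83), the narrowest interval among the 8 genes for this comparison. The steps gave 0.11 and -0.06 on the log2 scale (edgeR adjusted p = 0.741 and 0.893). TMEM245 (r = 0.949, rho = 0.8) and LRRC49 (r = 0.945, rho = 0.833) were most like NEO1.

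UNC5B (ENSGALG00010020365, chromosome 6, 12474900 to 12505789) encodes a netrin receptor known from both axons and blood vessels. It was at 56.4, 59.2 and 64.6 CPM in the HH13-14 pools, 87.5, 57.6 and 60.9 at HH15-16, and 49.1, 59.1 and 49.9 at HH17-18. Replicate 1 of HH15-16 was the highest of all 9 pools, and the stages overlapped. Means were 60.1 ± 4.14, 68.6 ± 16.4 and 52.7 ± 5.56 CPM (SD, n = 3). The later step had a log2 fold change of -0.38 with an unadjusted p of 0.0287 and did not pass (edgeR adjusted p = 0.461). Without replicate 1 of HH15-16 it was -0.17 (adjusted p = 0.764), and the earlier step went from 0.19 (edgeR adjusted p = 0.691) to -0.03. The difference between the steps was -0.57 (edgeR unadjusted p = 0.0489, adjusted p = 0.932). Over the interval the log2 fold change was -0.19 (SE 0.15, 95% interval -0.52 to 0.14, edgeR adjusted p = 0.511). CHIC2 (r = 0.956, rho = 0.933) and SLC41A1 (r = 0.955, rho = 0.817) were most like UNC5B.

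UNC5C (ENSGALG00010004366, chromosome 4, 58111934 to 58357124) encodes a receptor for repulsion by netrin, first known from a mouse mutant with misplaced cerebellar cells. Its level was 63.0, 91.2 and 86.4 CPM in the HH13-14 pools, 55.4, 83.3 and 82.0 at HH15-16, and 72.9, 79.1 and 86.2 at HH17-18. The pool lowest in UNC5C was again replicate 1 of HH15-16, the pool highest in UNC5B. The count ratio of UNC5C to UNC5B, which includes the lengths of both genes and is compared only across pools, was 0.633 in that pool and 1.12 to 1.73 in the other 8. UNC5C means were 80.2 ± 15.05, 73.6 ± 15.7 and 79.4 ± 6.70 CPM (SD, n = 3), and the stages overlapped. Over the interval the log2 fold change was -0.01 (SE 0.17, 95% interval -0.39 to 0.36, edgeR adjusted p = 0.97). The steps gave -0.12 and 0.11 (edgeR adjusted p = 0.839 and 0.887), and without HH15-16 replicate 1 both turned, to 0.04 and -0.06. ASIC4 (r = 0.919, rho = 0.733) and CSTB (r = 0.916, rho = 0.667) were most like UNC5C. The reference annotation places a microRNA gene and an uncharacterised protein-coding gene within or across the span of UNC5C.

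UNC5D (ENSGALG00010019540, chromosome 22, 1992629 to 2082935) encodes a receptor that in the mouse also binds FLRT2 and acts on migrating cortical neurons. It was at 3.58, 4.86 and 4.45 CPM in the HH13-14 pools, 3.22, 2.78 and 2.85 at HH15-16, and 3.80, 2.52 and 4.41 at HH17-18. All HH15-16 pools lay below all HH13-14 pools, and HH17-18 overlapped both. Means were 4.29 ± 0.656, 2.95 ± 0.239 and 3.58 ± 0.964 CPM (SD, n = 3). In the earlier step the log2 value was -0.54 (SE 0.24), with an unadjusted p of 0.0443 that did not pass (edgeR adjusted p = 0.483). It was -0.66 to -0.44 when each pool was left out in turn. The later step gave 0.28 and the interval -0.26 (edgeR adjusted p = 0.761 and 0.57). GSK3A (r = 0.950, rho = 0.95) and PRKAB1 (r = 0.944, rho = 0.85) were most like UNC5D. A long non-coding RNA gene overlaps UNC5D in the annotation.

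DSCAM (ENSGALG00010013589, chromosome 1, 108317436 to 108781357) encodes a homophilic adhesion molecule of the immunoglobulin superfamily that also serves as a netrin receptor. Its counts were 119, 87 and 47 in the HH13-14 pools, 55, 117 and 48 at HH15-16, and 85, 51 and 114 at HH17-18. The corresponding levels were 1.81, 1.63 and 0.833 CPM, then 0.937, 1.69 and 0.781, then 1.30, 0.932 and 1.91. Each stage held both a high and a low pool, and all stages overlapped. Over the interval the log2 fold change was -0.04 (SE 0.41, 95% interval -0.95 to 0.87, edgeR adjusted p = 0.964), which spans folds of 0.517 to 1.82. The steps gave -0.32 and 0.28 (edgeR adjusted p = 0.825 and 0.879). The lanes disagreed in 1 pool, replicate 1 of HH17-18, with 63 counts on lane 7 and 22 on lane 8 (exact binomial test, adjusted p = 0.000749 over 72 lane pairs of the 8 genes). In all, 6 of the 72 pairs differed at an adjusted p under 0.05, of which 3 were of NTN1, 2 of NTN3 and 1 of DSCAM. ULK4 (r = 0.844, rho = 0.833) and TMEM128 (r = 0.814, rho = 0.917) were most like DSCAM. A long non-coding RNA gene overlaps DSCAM.

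Counted by separation of the groups, 1 of 8 members (NTN4) had all 3 pools of HH17-18 above all 3 of HH13-14, whereas 31.4% of all genes were separated in one direction or the other. In the earlier step 1 of 8 was separated (UNC5D, lower), against 16.6% of all genes. In the later step 1 of 8 was separated (NTN4, higher), against 11.5%. These shares of members are close to the background of all genes or below it.

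Across the 9 pools, NTN1 and NTN3 had the highest correlation between members (r = 0.788, rho = 0.817), followed by NTN1 and UNC5D (r = 0.716, rho = 0.6). The lowest was that of NTN4 and UNC5B (r = -0.585, rho = -0.55). With stage means removed, NTN1 and UNC5D had r = 0.784 and NTN1 and NEO1 r = 0.778, so that within stages these genes tended to be high in the same pools. UNC5D in HH17-18, for example, was lowest in replicate 2 and highest in replicate 3, the order of NTN1. In HH15-16 both were highest in replicate 1, but UNC5D was lowest in replicate 2 and NTN1 in replicate 3. The order differed in HH13-14, where UNC5D was highest in replicate 2 (4.86 CPM), the pool lowest in NTN1 (46.7 CPM).

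Other genes of netrin signalling came from lists of further ligands, receptors and intracellular partners, with 52 symbols, of which 46 were found and passed the filter. Over the whole interval 1 of these 46 rose and 2 fell past the edgeR threshold, where 4.51% of all genes passed. At an unadjusted p under 0.05 there were 9, a share close to the 21.6% of all genes. In either step 0 passed the edgeR threshold, with 3 and 4 of 46 at an unadjusted p under 0.05, beside 10.1% and 9.32% of all genes. Their median log2 fold change over the interval was -0.02.

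Among 8 further ligands or ligand-related genes, 1 rose and 1 fell past the edgeR threshold over the interval. NTNG1 (ENSGALG00010011886) encodes netrin-G1, a membrane-anchored relative that binds LRRC4C and not DCC or UNC5 receptors. It was at 12.8, 12.2 and 10.8 CPM in the HH13-14 pools, 7.70, 14.1 and 20.0 at HH15-16, and 24.7, 40.9 and 34.9 at HH17-18. All HH17-18 pools were above all earlier ones, and the gene rose by 1.49 on the log2 scale (SE 0.30, edgeR adjusted p = 0.0259). LRRC4C, its receptor, gave -0.16 (edgeR adjusted p = 0.67).

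FLRT3 (ENSGALG00010018747) encodes a transmembrane adhesion protein that binds UNC5 receptors. It was at 221, 208 and 267 CPM in the HH13-14 pools, 248, 222 and 199 at HH15-16, and 170, 154 and 160 at HH17-18. HH17-18 lay below both earlier stages in every pool, and the gene fell by 0.53 on the log2 scale (SE 0.11, edgeR adjusted p = 0.027). FLRT2, its relative, gave a log2 value of 0.90 in the other direction that did not pass (edgeR adjusted p = 0.108), with all HH17-18 pools above HH13-14. RGMA and RGMB, ligands of neogenin, gave 0.04 and 0.44 (edgeR adjusted p = 0.941 and 0.18). DRAXIN, a secreted guidance protein that binds netrin-1 and DCC, was at 25.2, 5.65 and 15.1 CPM in the HH17-18 pools. Like NTN1 it was lowest there in replicate 2, but it was highest in replicate 1. At HH15-16 it had the order of NTN1 (25.0, 19.0 and 9.64 CPM). At HH13-14 it had the reverse order (19.8, 23.8 and 15.1 CPM). The log2 fold change of DRAXIN over the interval was -0.35 (edgeR adjusted p = 0.719).

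Of 12 other receptors, 0 passed the edgeR threshold in either direction over the interval, and 2 had an unadjusted p under 0.05. UNC5A, the remaining UNC5 gene, was at 3.03 to 6.09 CPM in the HH17-18 pools and gave a log2 value of 0.04 (edgeR adjusted p = 0.953). DSCAML1, the paralog of DSCAM, had -0.35 (edgeR adjusted p = 0.615). ITGB4, a laminin-binding integrin subunit, came closest to the threshold at 1.11 (edgeR adjusted p = 0.0505), and ITGA6, its partner, had -0.30 (adjusted p = 0.13).

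Of 26 intracellular partners and effectors, 0 rose and 1 fell past the edgeR threshold over the interval. ABLIM1 (ENSGALG00010022454) encodes an actin-binding LIM protein whose worm relative acts in netrin-dependent axon guidance. It was at 44.7, 53.5 and 55.5 CPM in the HH13-14 pools, 53.6, 51.6 and 39.2 at HH15-16, and 31.2, 28.4 and 33.4 at HH17-18. The HH17-18 pools were below all others, and ABLIM1 fell by 0.72 on the log2 scale (SE 0.13, edgeR adjusted p = 0.0205). The small GTPases RAC1 and CDC42, which act on actin below netrin receptors, gave log2 values of 0.10 and 0.02 (edgeR adjusted p = 0.311 and 0.886). MYO10, a motor of filopodia, had -0.31 (edgeR adjusted p = 0.105).

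Single pools also bore on these calls. Leaving out HH13-14 replicate 2 or 3, or HH17-18 replicate 2 or 3, left none of the 3 genes (NTNG1, FLRT3 and ABLIM1) called, and leaving out HH13-14 replicate 1 ended the calls of NTNG1 and FLRT3. The highest adjusted p was 0.106 for NTNG1, 0.104 for FLRT3 and 0.0926 for ABLIM1.

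**Figure D5:**
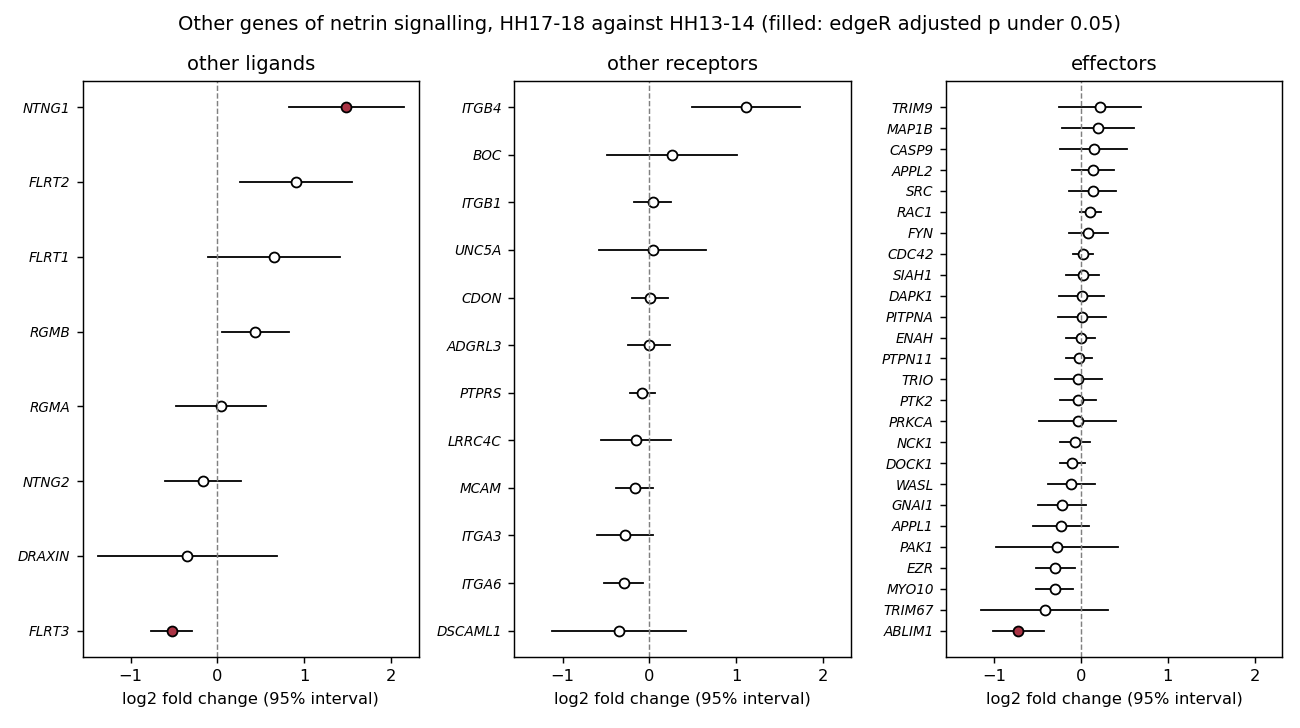
Log2 fold change of HH17-18 over HH13-14 for 46 other genes of netrin signalling, in 3 panels by role, with 95% intervals from the edgeR fit; filled points have an adjusted p under 0.05. The filled points are NTNG1 at 1.49, FLRT3 at -0.53 and ABLIM1 at -0.72.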

How the data were processed

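Per the submitters' processing notes, reads were handled with Trim Galore, HISAT2 and featureCounts on GRCg7b. Versions, options and the use of strand are not given in the sources used here, so the counts of genes that overlap another gene (UNC5C, UNC5D and DSCAM) are uncertain. The deposited table holds the authors' unnormalized counts for 18 libraries, with Ensembl identifiers and symbols. Every column was matched to a sample by name (0 left unused). Coordinates are those of the RefSeq gene table of the same build. Transcript lengths were not used here, so no levels per length were computed.

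Counts of lanes 7 and 8 were summed per pool, genes were kept by filterByExpr, library sizes were scaled by TMM, and all 9 pools entered 1 quasi-likelihood fit in edgeR 4.0.16 (R 4.3.3) without covariates. Tests were two-sided, with Benjamini-Hochberg adjustment over 17724 genes and a threshold of 0.05. Intervals of 95% come from the same fit, and the standard error (SE) is the one implied by the test statistic. The common biological coefficient of variation was 20.2%. In simulated counts for HH17-18 against HH13-14, 200 genes were changed by a log2 fold change of 1. Of these, 132 (66%) were recovered. Among the 17606 genes tested, which include the 200 changed ones, 7 unchanged genes were called falsely. Every simulated gene had the common variation, and changed genes came only from those above a minimum mean count. The recovered share need not hold for single members, whose spread differs.

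The genes most like a member were the 2 with the highest Pearson r of log2 CPM (prior count 2), among genes with a symbol and a mean of at least 5 CPM. All members are named; other pathway genes are named where they passed a threshold or where their role bears on a member. The members, gene lists and tests were chosen with earlier results of these data known. Some genes of the lists are not reported here and were left out of the lists' counts and sums. Results were recomputed with the size factors of DESeq2 1.42.0, its test, no filter, at least 10 counts in every pool, each lane alone, the replicate number as a block, fits of the 2 stages compared, each pool left out, and a prior count of 0.5 for the correlations.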

Additional observations from a re-analysis of the deposited data

How the results depend on the processing

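Of 459 recomputed log2 fold changes, 410 kept their direction and side of the threshold, 20 lost the threshold and 29 changed sign. The sign changes all belong to genes that did not pass, and no member other than NTN4 passed under any alternative. The number of members that passed the threshold as higher at HH17-18 than at HH13-14 was 0 with lane 7 alone. It was 0 to 1 with each pool left out, and under the other alternatives it stayed at 1. NTN4 and DSCAM were the members with the fewest counts, at most 194 and 119 in a pool. The part of depth in their results was not tested.

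Genes called over the whole interval numbered 1784 by the DESeq2 test and 1390 in the fit of the 2 stages compared, against 800. Leaving out a pool gave 98 to 1508, the lowest without HH13-14 replicate 1 and the highest without HH15-16 replicate 1. For the earlier step, where edgeR called 0, the DESeq2 test called 103, no filter 2 and lane 8 alone 1, and leaving out a pool gave 0 to 2. For the later step, with 14 called, the numbers were 345 by the DESeq2 test, 62 with no filter, 3 with lane 7 alone and 1 in the fit of the 2 stages, and 3 to 36 with a pool left out. The DESeq2 test used its own size factors and filter. DESeq2 size factors moved the median of all genes by -0.01 in the interval comparison.

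Deviations from stage means correlated at a mean of 0.0658 between pools with the same replicate number (9 pairs, -0.0633 to 0.303). Between pools with different numbers the mean was -0.0332 (18 pairs, -0.399 to 0.322). The ranges overlap, so these values do not settle whether the replicate numbers pair the pools. With the replicate block, NTN4 had a log2 fold change of 1.83 over the interval (edgeR adjusted p = 0.0334) and 876 genes were called, while NTN1 gave -0.0599, UNC5C 0.00435 and DSCAM 0.0244. In the same comparison NTN3 was 0.000878 with at least 10 counts in every pool and 0.0717 with lane 8 alone, where UNC5C was 0.0104.

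With each pool left out, changes over the interval ranged from -0.47 to 0.47 for NTN1, -0.40 to 0.23 for NTN3, -0.00515 to 0.11 for NEO1, -0.16 to 0.0863 for UNC5C and -0.36 to 0.17 for DSCAM. In the earlier step they were -0.51 to 0.0355 for NTN3, -0.0281 to 0.30 for UNC5B and -0.27 to 0.0374 for UNC5C. In the later step they were -0.19 to 0.87 for NTN1, -0.19 to 0.49 for NTN3, -0.15 to 0.0111 for NEO1, -0.0638 to 0.21 for UNC5C and -0.0330 to 0.69 for DSCAM. Over the interval, NTN4 ranged from 1.44 to 2.20, NTNG1 from 1.32 to 1.66, FLRT3 from -0.60 to -0.41 and ABLIM1 from -0.81 to -0.66. The cause of these shifts was not tested.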
